A study of Equus caballus with 4 samples.

Results

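Deubiquitinases of the USP and OTU families were examined in equine satellite cells (ESC), the stem cells of skeletal muscle, on 2-color gene expression arrays. Members were taken by name: every probe for a transcript whose symbol on the array was USP with a number, OTUB or OTUD. This gave 53 genes (45 USP and 8 OTU) with 104 probes, of 24998 gene or transcript names with 43603 probes on the array. Of these, 41 genes with 79 probes (35 USP and 6 OTU genes) were tested. The other 12 genes had no probe with a channel well above background on every array.

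The cells came from *m. semitendinosus* of young stallions and were on the 3rd day of differentiation. The HMB-treated group received 50 µM HMB (β-hydroxy-β-methylbutyrate, a leucine metabolite) for 24 h and 3 mM H2O2 in the last 1 h. The control group received H2O2 without HMB, so both groups carried the oxidant and differed in HMB. RNA of HMB-treated cells was labeled with Cy5 and control RNA with Cy3 on each of 4 arrays of 1 slide, with no exchange of dyes, so that an effect of the dye and an effect of HMB cannot be told apart. The labels call the arrays biological replicates, but according to the methods the horse culture with the best viability and fusion was selected for the experiments, and the labels give the control RNA the same replicate number on every array. The SD over the arrays may therefore leave out the spread between horses and between control cultures.

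Ubiquitin is a small protein that is linked to other proteins, singly or in chains, by E1, E2 and E3 enzymes. It marks the target for the proteasome or alters its activity, location or partners, and deubiquitinases remove it. USP enzymes are the largest deubiquitinase family, and OTU enzymes are a smaller family of which many prefer chains of a certain linkage. Members of both families act in cytokine and interferon signaling, in chromatin and in the turnover of muscle proteins. One of them, USP18, acts on ISG15, a ubiquitin-like protein that cells make in response to interferon.

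Probes of some called members, and some that mark limits, are shown first, as given in the scanner files, from 5′ to 3′, with positions on EquCab1. Those of *usp25* and *usp15* are not printed. Both *usp18* probes (ENSECAT00000000410, minus strand, chr6:27334502-27336281 and chr6:27336266-27336841) span more than their 60 bases in the genome, so each crosses a gap there, and they share the 16 bases in capitals. The probes of *otud4* (ENSECAT00000025178, plus strand, chr2:72857474-72857533) and *usp28* (ENSECAT00000025357, minus strand, chr7:18844013-18844072) each lie in 1 block. The probes of *usp13* (ENSECAT00000006202, plus strand, chr19:14871105-14872903) and *usp20* (ENSECAT00000009369, minus strand, chr25:5919507-5920032) cross gaps, and the latter is shown because its signal in the HMB-treated cells was not well above background. A further pair of probes, which the name rule did not take, belongs to a transcript listed as XM_001915505 and described as similar to *usp25* (minus strand, chr26:27043677-27043736 and chr26:27043687-27043746). The capitals in this pair mark 43 bases that both hold.
usp18, first probe: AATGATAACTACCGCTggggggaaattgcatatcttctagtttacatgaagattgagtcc
usp18, second probe: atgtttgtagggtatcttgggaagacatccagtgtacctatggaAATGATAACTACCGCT
otud4: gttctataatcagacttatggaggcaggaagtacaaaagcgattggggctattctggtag
usp28: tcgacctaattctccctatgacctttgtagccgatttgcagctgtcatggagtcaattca
usp13: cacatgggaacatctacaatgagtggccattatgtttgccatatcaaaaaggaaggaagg
usp20: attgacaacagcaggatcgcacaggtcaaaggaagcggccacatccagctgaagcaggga
XM_001915505, first probe: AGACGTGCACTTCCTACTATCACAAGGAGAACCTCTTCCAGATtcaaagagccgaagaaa
XM_001915505, second probe: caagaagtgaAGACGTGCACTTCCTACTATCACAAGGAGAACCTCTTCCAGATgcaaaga

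Gene values are log2 ratios of the HMB-treated over the control signal, averaged over the tested probes of a gene and given as mean ± SD over the arrays (n = 4). A gene was called at a limma adjusted p of at most 0.05 over all 14107 tested genes and a fold change (FC) of at least 1.3. Between pairs of arrays, the ratios of all tested probes correlated with r from 0.83 to 0.92 (Pearson, across probes, which are not independent replicates). Non-control spots well above background made up 57.6 to 60.6% in Cy3 and 55.2 to 61.8% in Cy5. No member spot was marked as an outlier.

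Of the 41 tested members, 13 were called. Higher expression in HMB-treated cells was called for 6 (*usp18*, *usp25*, *otud4*, *usp15*, *usp21* and *usp37*), 14.6% of the members against 12.4% of all tested genes. Lower expression was called for 7 (*usp28*, *usp20*, *usp13*, *usp36*, *usp12*, *usp9x* and *usp2*), 17.1% against 16.2%, and for *usp20* among them only an approximate bound can be given. *Usp25*, *usp21*, *usp20*, *usp12* and *usp2* were well above background on every array only in the channel where they were higher. A filter that accepts either channel favors such changes, and 6 of the calls stayed when both channels were required. Both shares lay near the background, so the number of calls says nothing particular about the families. The 4 largest rises of members ranged from an FC of 2.56 to 17.3, whereas no fall exceeded an FC of 1.93. Larger rises than falls were also seen among all tested genes, with log2 ratios from -2.74 to 7.15. Their 1st percentile was -1.26 and their 99th percentile 2.83, so this difference in size is not particular to the families. The median of the members was -0.16 (-0.23 to -0.06 on single arrays) and that of all tested genes -0.06 (-0.07 to -0.05). Without replicate 4 the median of the members was -0.086. Of the members, 22.0% had a mean above 0, compared with 42.9% of all tested genes.

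**Figure D1:**
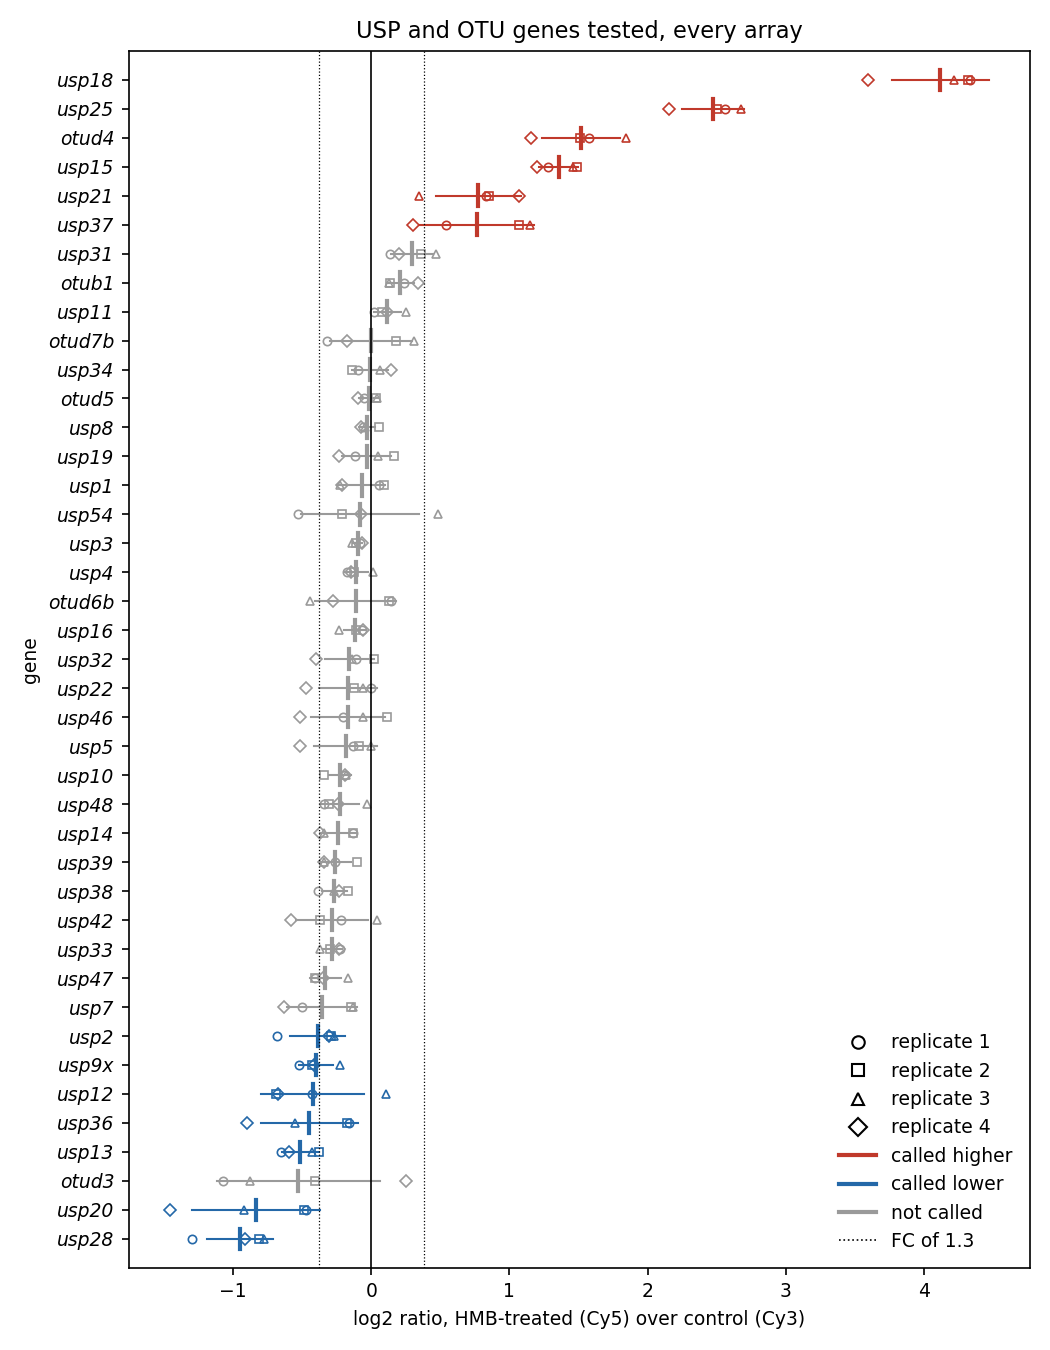
Log2 ratio of HMB-treated over control cells (horizontal axis) for the 41 tested USP and OTU genes (vertical axis), with a symbol for each of 4 arrays, a thick bar for the mean and a line for ± 1 SD. Dotted lines mark an FC of 1.3. The 4 arrays of *usp18*, *usp25*, *otud4* and *usp15* all lie above those of every other gene shown; the nearest is the array of *usp37* at 1.15.

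**Figure D2:**
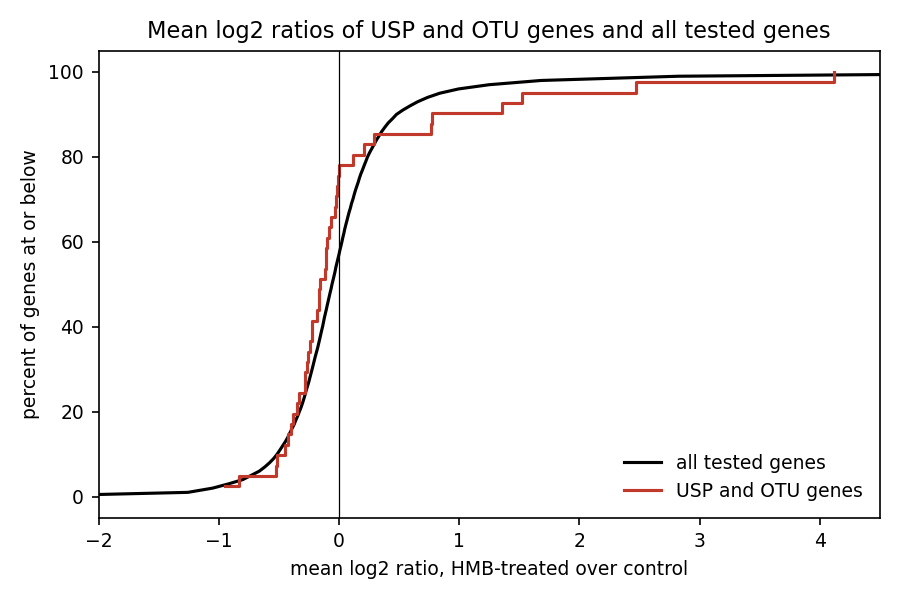
Cumulative percentage of genes (vertical axis) at or below each mean log2 ratio (horizontal axis) for the 41 tested USP and OTU genes and for all 14107 tested genes; the axis stops at 4.5, above which further genes of the whole set lie. The member curve runs to the left of the other around 0 (median -0.16 against -0.06) and reaches 4.12 with *usp18*.

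The largest change was that of *usp18*, whose product takes ISG15 off proteins and, at the interferon receptor subunit IFNAR2 together with STAT2, dampens type I interferon signaling. Its log2 ratio was 4.33, 4.32, 4.22 and 3.59 on arrays 1 to 4. Every array was thus far above 0, and the fourth was the lowest. The mean was 4.12 ± 0.35, an FC of 17.3 (limma adjusted p = 6.18e-06), the 44th highest of all tested genes. In the first probe shown above, the processed signal went from 174, 155, 219 and 230 in the control to 3671, 3392, 4279 and 2912 in the HMB-treated cells. The second probe gave a mean ratio of 4.03 ± 0.34 against 4.20 ± 0.37 for the first. Because 16 of their bases are the same, these probes are not independent, but most of each reads another stretch of the transcript.

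*Usp25*, whose product trims ubiquitin chains and acts on TRAF adaptors of cytokine and virus sensing, was higher by 2.56, 2.51, 2.68 and 2.16 on the log2 scale. All 4 arrays rose by more than an FC of 4. The mean was 2.47 ± 0.22, an FC of 5.56 (limma adjusted p = 1.24e-05). It rests on 1 probe (ENSECAT00000024147, chr26:26956424-26956483), which was dim in the control, with signals of 20.8 to 28.5 that were well above background on 3 of 4 arrays, and 103 to 182 in HMB-treated cells. The size depended on how background was treated: with normexp correction the ratio was 0.76 and with no background correction 1.12, both still called. The probes of XM_001915505 lie 87.2 kb away on the same strand of chromosome 26 and were well above background in both channels of all arrays. They gave 1.13, 1.43, 1.70 and 1.06 (first probe) and 1.03, 1.46, 1.80 and 1.06 (second probe). Their mean was 1.34 ± 0.33 (limma adjusted p = 0.000480), higher on 4 of 4 arrays, and 1.14 lower than that of the *usp25* probe (0.93 to 1.48 on single arrays). Whether they read the same transcript is not given in the files.

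*Otud4* encodes an OTU enzyme with roles in innate immune signaling and in DNA alkylation repair. The ratio was 1.57, 1.51, 1.84 and 1.16, so that it was above an FC of 2 on every array. The mean was 1.52 ± 0.28, an FC of 2.87 (limma adjusted p = 0.000188). The control signal was 64.7 to 78.6 and the HMB-treated signal 167 to 282, without overlap. With normexp correction the ratio was 0.62 and with no background correction 0.92, also called.

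*Usp15*, which acts on TGF-β receptors and SMAD proteins, was measured by 3 probes of 2 listed transcripts (ENSECAT00000024653 and ENSECAT00000024728), none of which share a base. The gene ratio was 1.28, 1.49, 1.46 and 1.20, with the arrays close together. The mean was 1.36 ± 0.14, an FC of 2.56 (limma adjusted p = 5.91e-05). The probe of the first transcript gave 1.16 ± 0.20 and those of the second 1.42 ± 0.13 and 1.48 ± 0.09. All 3 probes were called, and the rise kept its call under each alternative that was run.

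The other 2 rises were smaller and rested on dim probes. *Usp21*, whose targets include RIPK1 and histones, had ratios of 0.83, 0.86, 0.34 and 1.07, with the third array below an FC of 1.3. Its mean was 0.77 ± 0.31 (limma adjusted p = 0.00336), and the control signal was well above background on 2 of 4 arrays. *Usp37*, a cell cycle enzyme that acts on cyclin A, had ratios of 0.54, 1.07, 1.15 and 0.30. Its mean was 0.77 ± 0.41 (limma adjusted p = 0.00853), with Cy3 above background on 2 and Cy5 on 3 of 4 arrays. Its second probe was above background in neither channel of any array. Neither gene was called with normexp (0.22 and 0.10) or without background correction (0.32 and 0.19).

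**Figure D3:**
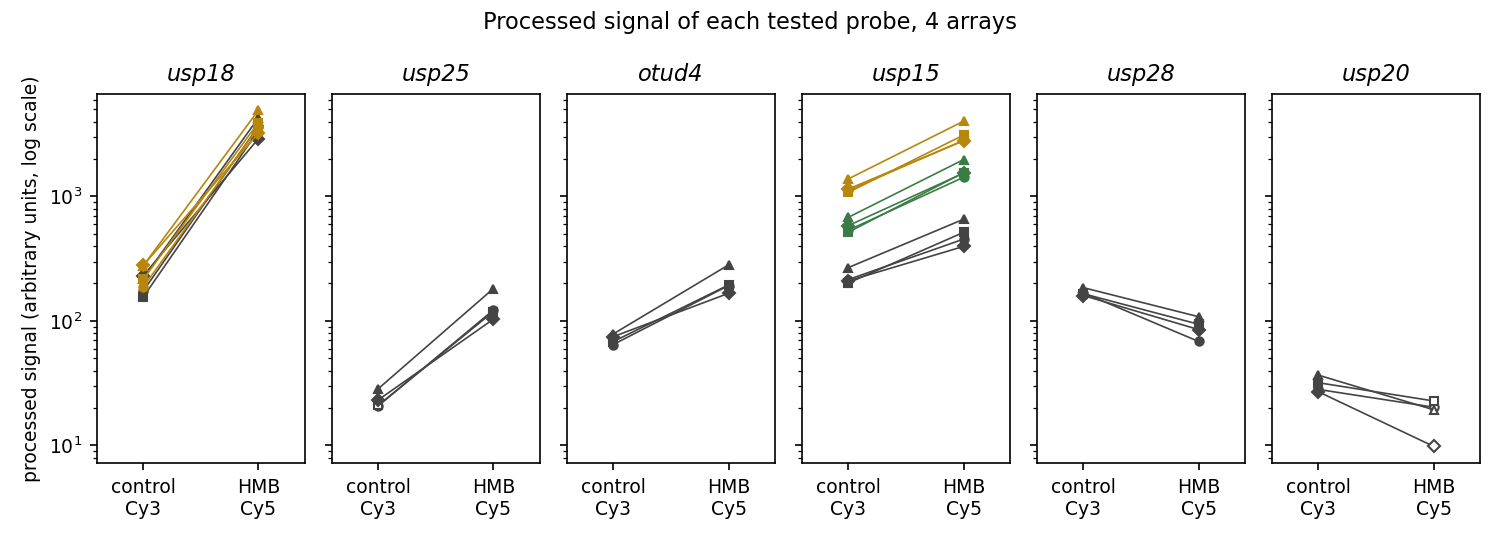
Processed signal in arbitrary units (vertical axis, log scale) in control (Cy3) and HMB-treated (Cy5) cells for the tested probes of 6 genes, with 1 line per array and probe and a color per probe; open symbols were not well above background. Levels can be compared within a probe only. The lines of *usp18*, *usp25*, *otud4* and *usp15* rise on all 4 arrays, those of *usp28* fall, and the HMB-treated signals of *usp20* are all open.

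The largest measured fall was that of *usp28*, the closest relative of *usp25*, which acts on MYC and on DNA damage proteins. Its ratio was -1.30, -0.81, -0.78 and -0.91, below 0 on every array. The mean was -0.95 ± 0.24, an FC of 1.93 (limma adjusted p = 0.000745). The signal was 160 to 185 in the control and 68.5 to 108 in HMB-treated cells, without overlap. With normexp correction the ratio was -0.41 and without background correction -0.51, both called.

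*Usp20*, which acts in the recycling of adrenergic receptors, had ratios of -0.48, -0.49, -0.92 and -1.46. The mean was -0.84 ± 0.46 (limma adjusted p = 0.00904), but Cy5 was well above background on 0 of 4 arrays, so that only an approximate bound can be given. With the deposited background subtraction, this bound was 1.28-fold lower in HMB-treated cells, which is less than the FC of 1.3 used for calls. After normalization the mean log2 signals were 4.94 in Cy3 and 4.11 in Cy5. The bound sets the dim signal of each array at the lowest signal of any probe well above background there, unless its own was higher. On array 4, the Cy5 signal of *otud6b* was 43.6 and not well above background, while that of *usp22* was 32.8 and was. The Cy3 signal of *usp20* was 27.0 there. An undetected signal can thus exceed the level used, so that no minimum fall is shown. Correction with normexp brought the ratio to -0.07 and no background correction to -0.20. Both are smaller falls than the bound, which therefore does not hold under another treatment of background.

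*Usp13*, a relative of the free chain enzyme encoded by *usp5*, was lower by a similar amount on all arrays, with ratios of -0.65, -0.38, -0.43 and -0.60. The mean was -0.51 ± 0.13, an FC of 1.43 (limma adjusted p = 0.00256), with both channels above background throughout. It missed the call in a limma fit that asked for more than an FC of 1.3 (treat), and with median centering (-0.37).

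The remaining 4 falls were close to the FC limit, and none was called with normexp or without background correction. *Usp36*, which encodes a nucleolar enzyme, had ratios of -0.16, -0.18, -0.55 and -0.90 and a mean of -0.45 ± 0.35 (limma adjusted p = 0.0353). Its 2 calls at the probe level were among 4 tested probes, of 5 that share 55 bases, and the gene was not called without replicate 3 (-0.41) or 4 (-0.30). *Usp9x*, an X-linked enzyme of TGF-β signaling and cell polarity, had ratios of -0.52, -0.43, -0.23 and -0.41 and a mean of -0.40 ± 0.12 (limma adjusted p = 0.00610). Of its 2 probes, the call was made for 1 (-0.52 ± 0.16) and not for the other (-0.27 ± 0.09). *Usp2*, an enzyme of cyclin and clock protein turnover, had ratios of -0.68, -0.29, -0.27 and -0.30, so that the first array alone passed an FC of 1.3. The mean was -0.39 ± 0.20 (limma adjusted p = 0.0149). Without replicate 1, neither *usp9x* (-0.36) nor *usp2* (-0.29) was called. *Usp12*, which works with WDR48, had ratios of -0.43, -0.69, 0.11 and -0.68 and was the only called member without the same sign on all arrays. Its mean of -0.42 ± 0.37 (limma adjusted p = 0.0494) was not called without replicate 1 (-0.42), 2 (-0.33) or 4 (-0.34), and Cy5 was above background on 1 of 4 arrays. The ratios with normexp and without background correction were -0.05 and -0.09 for *usp36*, -0.13 and -0.13 for *usp2*, and -0.10 and -0.13 for *usp12*. *Usp9x* was at -0.35 and -0.32, and at -0.21 with median centering, also not called.

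The members were also grouped by function. The groups were drawn up with earlier results of these arrays known, hold 3 to 9 tested genes each and were given no test, and their counts stand beside 12.4% higher and 16.2% lower among all tested genes. Of 9 tested members tied to innate immune and NF-κB signaling, 4 were higher (*usp18*, *usp25*, *otud4* and *usp21*) and 0 lower, with a median of 0.29, which was -0.20 when arrays were scaled to spike-in RNA. The remaining 5 were not called. *Usp31* (0.29 ± 0.15) and *otub1* (0.21 ± 0.10), whose product blocks the E2 enzyme UBE2N, had ratios above 0 on all arrays with an FC below 1.3. *Otud7b* (-0.00 ± 0.29) and *otud5* (-0.02 ± 0.07), both regulators of TRAF proteins, lay at 0, and *usp38* (-0.27 ± 0.09) lay below it.

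Of 5 members of TGF-β and Wnt signaling, 1 was higher (*usp15*) and 1 lower (*usp9x*), with a median of -0.01. *Usp11* (0.12 ± 0.10), *usp4* (-0.11 ± 0.08) and the axin enzyme *usp34* (-0.01 ± 0.13) were not called. Among 7 members of DNA repair and the cell cycle, 1 was higher (*usp37*) and 2 lower (*usp28* and *usp12*), with a median of -0.23. The values of the others were -0.07 ± 0.17 for *usp1*, which acts on FANCD2, -0.17 ± 0.27 for *usp46*, -0.23 ± 0.14 for *usp48* and -0.33 ± 0.11 for *usp47*.

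Among 6 chromatin and transcription members, *usp36* was lower and the others were not called, with a median of -0.22. They were *usp22* of the SAGA complex (-0.17 ± 0.21), the histone enzymes *usp3* (-0.10 ± 0.03) and *usp16* (-0.12 ± 0.08), *usp42* (-0.28 ± 0.26) and *usp7* (-0.35 ± 0.25), which acts on MDM2. All 6 means were below 0. In the group of free ubiquitin and the proteasome, *usp13* was lower, whereas *usp5* (-0.18 ± 0.23) and *usp14* (-0.24 ± 0.13), whose product binds the proteasome, were not called. Of 6 members of vesicle traffic, receptors and organelles, *usp20* was called lower, with a bound short of the FC limit. The remainder ranged from -0.28 ± 0.07 for *usp33* to -0.03 ± 0.06 for *usp8*, an enzyme of endosomes, with *usp10* (-0.23 ± 0.08), *usp32* (-0.16 ± 0.18) and *usp19* (-0.03 ± 0.18) between them.

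The last 5 tested members have other or less known roles, and *usp2* was the called one. *Otud3* had a mean of -0.53 ± 0.59, past the FC limit, but its arrays spread from -1.07 to 0.25 (limma adjusted p = 0.0833). *Usp39*, a splicing protein without deubiquitinase activity, was at -0.26 ± 0.11, *otud6b* at -0.11 ± 0.29 and *usp54* at -0.08 ± 0.42. Of the 28 members not called, 10 had an adjusted p of at most 0.05 with an FC under 1.3, of which 8 were below and 2 above 0. The other 18 did not pass the p threshold, with means from -0.53 to 0.12.

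The 12 untested genes were *otub2*, *otud7a*, *usp26*, *usp30*, *usp35*, *usp40*, *usp43*, *usp44*, *usp45*, *usp49*, *usp51* and *usp53*. For 9 of them, no probe was well above background in either channel of any array. The 2 probes of *otub2*, which overlap by 59 bases, were above background on 2 and 3 of 4 arrays in Cy3 and on 1 in Cy5. Their ratios were -0.50, -0.39, -1.58 and 0.09, and -0.23, -0.36, -0.41 and -0.54, so that the first probe did not keep its sign. No call was possible for this gene.

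Several probes were at hand for 23 members, of which 16 had more than 1 tested probe. For 10 members all probes of a gene held a common run of 16 to 59 bases, so that their 41 probes are not separate readings. Neighboring probes of *usp47* and of *usp34* also overlap in position, although no such run is common to all of them. At the probe level, 20 of 79 tested member probes were called (25.3%), against 28.3% of all tested probes. Probes of 5 genes were split in call. The 5 *usp31* probes share 56 bases and gave 0.13 to 0.51, with 1 called. The 4 *usp47* probes gave -0.38 to -0.26, with 1 called. The array values of *usp47*, an enzyme of base excision repair, were -0.41, -0.40, -0.17 and -0.35, all below 0 but short of the FC limit in the mean (limma adjusted p = 0.0109). Of 3 tested *usp48* probes, 1 was called (-0.40 ± 0.23) and the others were at -0.18 ± 0.13 and -0.10 ± 0.09. The splits in *usp36* and *usp9x* are given above.

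**Figure D4:**
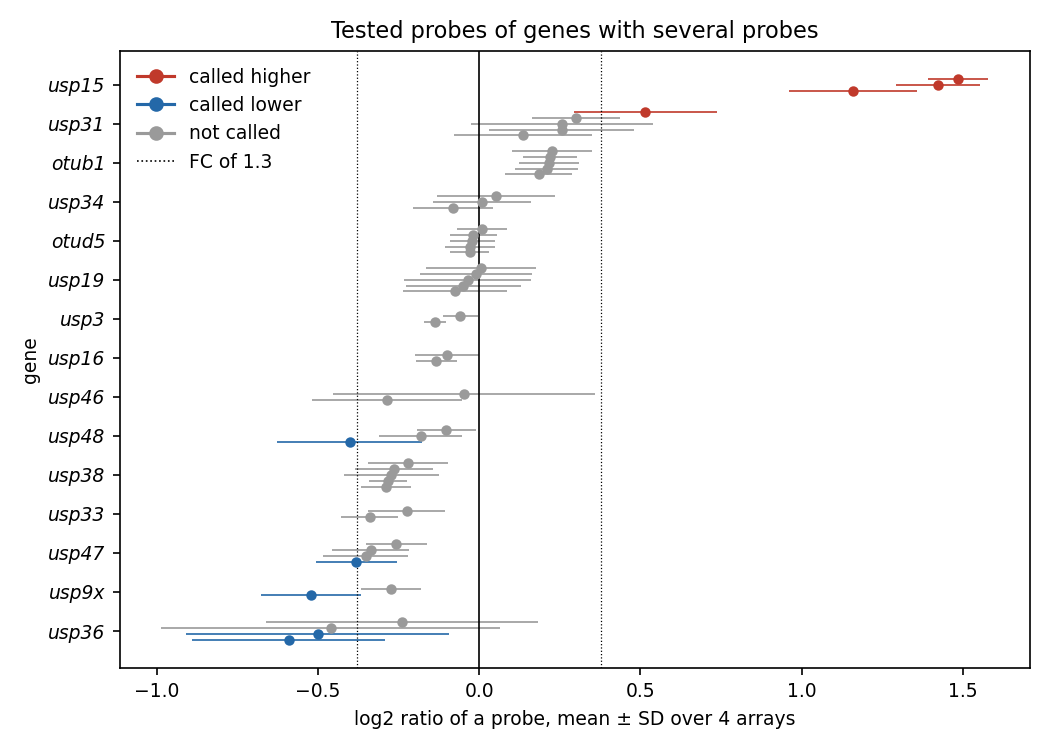
Log2 ratio of each tested probe (horizontal axis, mean ± SD over 4 arrays) for members with several tested probes (vertical axis), other than *usp18*. Dotted lines mark an FC of 1.3. The 3 *usp15* probes are all called higher, whereas the probes of *usp31*, *usp48*, *usp47*, *usp9x* and *usp36* fall on both sides of the call.

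Closely related members were compared within each array, for 8 pairs. With 4 arrays an exact sign-flip permutation test (two-sided) cannot give a p below 0.125, and no pair could pass. *Usp25* and *usp28* moved in opposite directions, with a difference of 3.42 ± 0.33 (3.07 to 3.86; exact p = 0.125, adjusted over the pairs 0.200). *Usp15* was above its relatives *usp4* by 1.46 ± 0.11 (1.34 to 1.61) and *usp11* by 1.24 ± 0.13 (1.09 to 1.41), each on 4 of 4 arrays with the same exact p. *Usp13* was below *usp5* by -0.33 ± 0.19 and *usp20* below *usp33* by -0.55 ± 0.47, also on all arrays, the latter with the bound named above. For *usp12* and *usp46* (-0.26 ± 0.41, exact p = 0.375), *usp36* and *usp42* (-0.17 ± 0.36, exact p = 0.500) and *usp7* and *usp47* (-0.02 ± 0.23, exact p = 0.875) the differences had both signs across the arrays. Since the pairs were set with these values known, the differences are a description.

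Genes of ISG15, the modifier removed by USP18, and of its attachment were listed together with partners of USP18 at the interferon receptor. All 7 genes of this list were tested and called higher, with a median of 3.13, against 12.4% of all tested genes. The list was drawn up with earlier results of these arrays known, so its count is a description. *Uba7*, the E1 enzyme of ISG15, had ratios of 4.27, 4.34, 4.25 and 4.51 (limma adjusted p = 1.07e-06). Its control signal was well above background on 0 of 4 arrays, so that only an approximate bound can be given. With the deposited background subtraction, this bound was 16.2-fold higher. On array 2, the Cy3 signal of *usp21* was 36.4 and not well above background, while that of a *usp46* probe was 26.6 and was. An undetected control signal can thus exceed a detected one, so the bound is not a minimum. *Isg15* had 3.23, 3.20, 3.28 and 2.82 (mean 3.13 ± 0.21; limma adjusted p = 4.36e-06). *Herc5*, the E3 ligase, had a mean of 5.10 ± 0.95 and its relative *herc6* one of 4.82 ± 0.48. The partners of USP18 at the receptor were higher by less, with 0.77 ± 0.25 for *stat2* and 0.54 ± 0.21 for *ifnar2*.

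Other deubiquitinases were called in both directions. Of 6 tested OTU-domain and CYLD-type genes outside the name rule, *vcpip1* (1.16 ± 0.14), an enzyme of Golgi assembly, and *cyld* (0.84 ± 0.14), a brake on NF-κB, were higher. *Zranb1* (-0.73 ± 0.23) was lower. With so few genes, these counts are not read against the 12.4% higher and 16.2% lower among all tested genes. The transcript described as *usp24* (ENSECAT00000014040) was at -0.09 ± 0.13 over 5 probes and was not called. Of 12 UCH, Josephin and JAMM enzymes, 0 were called higher, and *uchl1* (-0.97 ± 0.09) and *uchl5* (-0.43 ± 0.17), which works at the proteasome, were called lower, against 16.2% of all tested genes.

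Among 12 tested partners of deubiquitinases, *vcp* (-0.61 ± 0.14), a segregase for ubiquitinated proteins, was called lower and 0 were called higher, against 16.2% and 12.4% of all tested genes. Partners of members named above included *wdr48* (0.06 ± 0.07), *g3bp1* (0.20 ± 0.07) and *gmps* (-0.22 ± 0.08), which were not called. Of 5 ubiquitin genes and E1 enzymes, *uba6* (0.63 ± 0.14) was called higher and 0 were called lower, beside the same shares of all tested genes. The ubiquitin genes *ubc* (0.23 ± 0.10) and *rps27a* (0.05 ± 0.07) were not called.

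Markers of cell types were looked at as well. Of 6 muscle markers with a probe, each was well above background in both channels, and 4 were called lower (*myf5*, *myh3*, *des* and *acta1*, -1.63 to -1.10), while *myod1* (0.10 ± 0.19) and *myog* (0.03 ± 0.23) were not called. The summed processed signal of this list was 162993 to 183604 in control and 61857 to 98186 in HMB-treated cells. Of 4 fibroblast markers with a probe, 3 were called higher (*pdgfra*, *thy1* and *lum*, 0.45 to 1.82), and the sums were 218862 to 253835 and 221062 to 350824. Among all tested genes, 12.4% were called higher and 16.2% lower. All 4 endothelial markers, and 3 of 5 leukocyte markers with a probe, were not well above background in either channel of any array. The leukocyte sums were 98.9 to 139 in control and 128 to 225 in HMB-treated cells, with *cd68* called higher (0.88 ± 0.20). The part of these shifts in the values of the deubiquitinases was not tested. In such cultures, fewer cells of a type and less RNA per cell cannot be told apart.

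**Figure D5:**
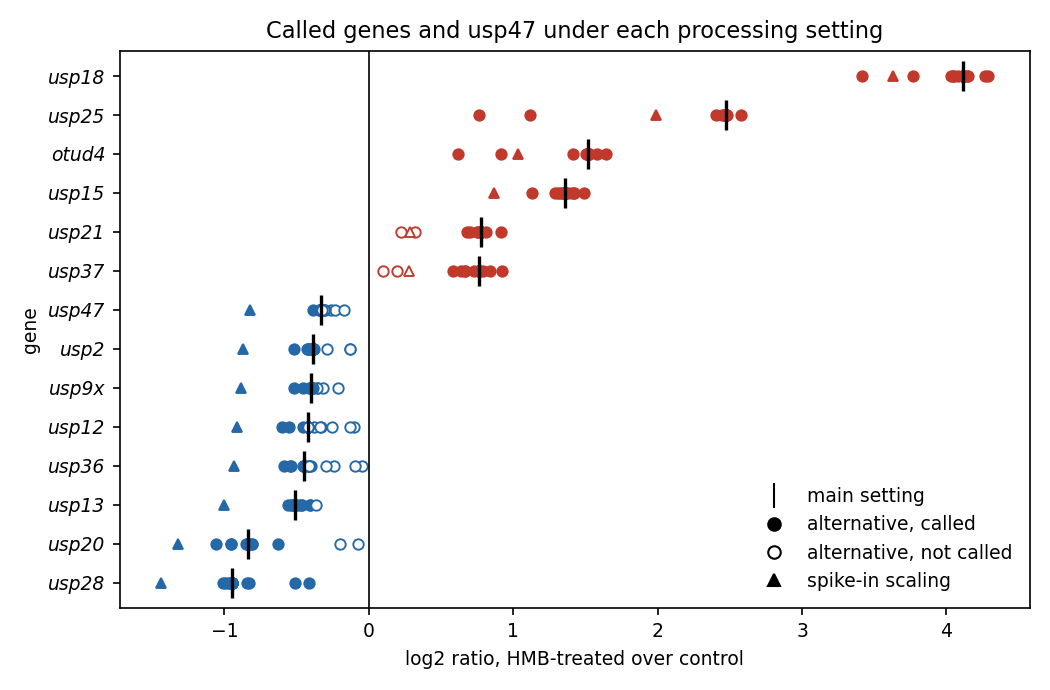
Log2 ratio (horizontal axis) of the 13 called members and *usp47* (vertical axis) in the main setting (black bar) and under each alternative (points; filled where called, triangles for scaling to spike-in RNA). No point crosses 0. *Usp18*, *usp25*, *otud4*, *usp15* and *usp28* were called under each alternative in which they were tested, while *usp25* and *otud4* were reduced the most by another background correction, to 0.76 and 0.62.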

How the data were processed

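HMB-treated (Cy5) and control (Cy3) ESC were compared on 4 Agilent horse arrays with 60-base probes annotated on EquCab1. For the intensity values, the authors used Feature Extraction (10.10.1.1 per the file headers) to subtract background and apply linear and lowess normalization. The deposited log10 values are ratios of Cy5 over Cy3, and the authors' series table holds the same ratios within 3.96e-05. Each deposited log10 ratio was converted to log2 here.

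Controls and spots marked non-uniform or as population outliers were left out. Tested probes (24880) had at least 1 channel well above background on every array and a ratio on at least 3 arrays. Probe ratios were averaged per symbol of the array and tested with limma 3.58.1 in R 4.3.3 (intercept, empirical Bayes, Benjamini-Hochberg over all genes; adjusted p of at most 0.05 and FC of at least 1.3, as in the methods). The test was tried on simulated data. Depth is not defined for arrays; their number limits precision, and p-values measure the spread between these arrays.

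Every called member was named, and up to 8 rises and 8 falls of the same sign on all arrays, with the members that the study names, were given with all values. The members, lists and pairs were chosen with earlier results of these data known. The lists comprised 7 role groups of members, 5 lists of other ubiquitin genes and 4 of cell type markers (*pax7*, *col1a1* and *ptprc* have no probe under these symbols). Pair differences were tested with an exact sign-flip permutation test. Alternatives were the methods' t-test, treat, trended robust moderation, normexp background correction (offset 50) or none, both followed by loess, centering on the median, scale normalization, spike-in scaling, a correction for probe GC content, other filters and probe summaries, the authors' table, and leaving out each replicate. A search of promoters for motifs, planned in case promoter sequences were at hand, was not run.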

Additional observations from a re-analysis of the deposited data

Results flagged for a closer look

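Of the 14 genes examined (the called members and *usp47*), 2 had an array that stood apart from the other 3, judged by its gap to the nearest array as a share of the range of all 4 (about 1 in 20 such groups stands apart by chance). For *usp18* this share was 0.845, with 3.59 on replicate 4 and 4.22 to 4.33 on the others. For *usp2* it was 0.919, with -0.68 on replicate 1 and -0.30 to -0.27 on the others.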

How the results depend on the processing

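The 13 called members and *usp47* gave 258 values under the alternatives, of which none changed sign, 208 kept their side of the threshold, 48 lost the call and 2 gained it. *Usp18*, *otud4*, *usp15* and *usp28* kept their calls under all 19 alternatives, and *usp25* under all but the filter on both channels, which left it untested. In place of 13 members called (6 higher, 7 lower), the methods' t-test called 7 (3 lower), treat 5 (1 lower), normexp 6 (2 lower), no background correction 6 (2 lower) and the filter on both channels 6 (3 higher, 3 lower), the last with 31 members tested. Of all tested genes, 7.28% were higher and 5.47% lower with normexp, and 10.5% and 6.42% without background correction. With the filter on both channels the shares were 11.8% and 14.1%. No such share is given for the t-test and treat. Without a filter on dim probes 4 were lower, namely 3 of the 7 and *usp49*, whose signals were not well above background. There 6.64% of all genes were higher and 10.3% lower. Scaling to spike-in RNA moved the median of all tested genes from -0.06 to -0.55 and that of the members to -0.65, with 36 members called, 4 higher and 32 lower, where 4.61% of all tested genes were higher and 69.0% lower. The median of the members was -0.050 with normexp, -0.046 without background correction and -0.071 with median centering. Leaving out a replicate gave 10 to 15 called members, with 4 to 9 lower (4 without replicate 1), and medians of -0.20 to -0.086 (the last without replicate 4). Of all tested genes, 10.9 to 12.6% were then higher and 15.2 to 16.2% lower. A filter asking for the same channel on all arrays, added after seeing the data, left *usp37* untested. The cause of these shifts was not tested. Dim probes are limited by background: *usp20*, *usp12*, *usp36*, *usp2*, *usp21*, *usp37* and the control signal of *usp25* were not well above it on every array. The test of the ratios within arrays is itself paired by array.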

Other observations

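*Usp49*, a histone deubiquitinase gene that was not tested because neither channel was well above background on any array, had ratios of -1.43, -1.72, -1.63 and -1.42. The processed signals were 16.0 to 21.3 in control and 5.55 to 6.89 in HMB-treated cells. It was called lower when dim probes were not filtered. It was singled out after its values were seen, and no fold is given because both signals lay near background.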
